A study of Saccharomyces cerevisiae with 5 samples.

Results

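The genes described here encode 32 subunits of the yeast proteasome, namely the 14 subunits of the 20S core and 18 subunits of the 19S regulatory particle. They were chosen by name as members of the complex and not by a cut on any measured value, but earlier results of these data were known. All 32 had a probe set assigned to a single gene, out of 5656 genes with such a probe set, and all 32 were among the 4242 genes bright enough to be tested. The small lid subunit SEM1 was not among the 32 and is given below with the associated proteins. Transcripts were measured on 1 Affymetrix array per culture in 2 Δrsf2 cultures and 3 wild-type cultures. The mutant is isogenic to its parent Saccharomyces cerevisiae BY4741 and lacks RSF2 (YJR127C, also named ZMS1), which encodes a zinc-finger protein. BY4741 is a haploid laboratory strain of mating type a that is known to lack HIS3, LEU2, MET15 and URA3, so both groups share these deletions. Cells of both strains were harvested at an A600 of 0.6 from 50 ml of rich medium with glycerol as the only carbon source, and poly(A) RNA was prepared. This follows the series design and the sample labels. A treatment note attached to all 5 samples also describes a transfer of dextrose-grown cells into glycerol medium for a number of minutes, of which no value is given, and the sources do not settle whether it applied to these cultures. The labels call the cultures biological replicates and do not say how the deletion was made or whether the mutant cultures came from more than 1 clone. The question behind the comparison is how loss of RSF2 alters the transcripts of cells that must respire glycerol.

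The proteasome is the protease that breaks down ubiquitin-tagged proteins in the cytosol and nucleus. Its 20S core is a barrel of outer alpha rings and inner beta rings, and the active sites face the inside of the barrel. The 19S particle caps the barrel: its base carries a ring of ATPases that unfold substrates, and its lid removes ubiquitin. In yeast the genes of both particles are activated together by the transcription factor Rpn4, which is itself a short-lived proteasome substrate, so that loss of proteasome activity raises proteasome gene expression.

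Array-wide facts that touch these genes came first. RSF2 checked the labels: its deposited signal was 1.9 and 3.3 in Δrsf2, against 203.8, 253.9 and 415.9 in the wild type. After rescaling, both mutant arrays lay below the floor of 28.1 applied to all signals, so that RSF2 was at least 9.90-fold lower in Δrsf2. The CreX spike-in control divided the arrays into 2 sets that each held both strains, which were defined from its signal and not by the sample labels. It read 48446 in the first Δrsf2 array and 52713 in the first wild-type array, against 2216 in Δrsf2 replicate 2 and 9326 and 2631 in wild-type replicates 2 and 3. Actin mRNA had a 3′ to 5′ signal ratio, a measure of RNA integrity and labelling, of 4.91 and 1.55 in Δrsf2 and 2.76, 2.28 and 1.69 in wild-type replicates 1 to 3. Signals below are in arbitrary units after each array was scaled to the same trimmed mean, and the signal of a probe set was compared only with that of the same probe set in other arrays. In such bulk RNA a change shared by all transcripts of a cell cannot be seen.

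No proteasome transcript passed the test between Δrsf2 and the wild type. The median log2 difference over the 32 genes was 0.01, against -0.03 over all genes tested, and 16 of the 32 were higher and 16 lower by value. With limma and Benjamini-Hochberg adjustment 0 of 32 members passed at 0.05, and 0% of all genes did. At an unadjusted p under 0.05 there were 0 members in either direction, where 0.943% of all genes were higher and 2.31% lower. Fitted differences ran from -0.83 for PRE5 to 0.46 for RPN2. The 95% interval of the difference contained 0 for all 32 genes, and its half-width ran from 0.92 to 1.46 on the log2 scale. For 1 of the 32, RPT6, the whole interval lay inside a 2-fold change in either direction, so that for the other 31 a 2-fold difference was within the error.

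The median over the 32 genes took its sign from single arrays. It was -0.30 with Δrsf2 replicate 1 as the only mutant array and 0.30 with Δrsf2 replicate 2 as the only one, and -0.17 without wild-type replicate 1. In the set of high spike-in signal it was 0.13 and in the low set 0.13, but 17 of the 32 genes had opposite signs in the 2 sets. The median of all genes was 0.21 in the high set and -0.11 in the low set, and 2380 of the 4242 genes had opposite signs. Opposite signs were thus common among all genes and are not a result about the proteasome.

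**Figure D1:**
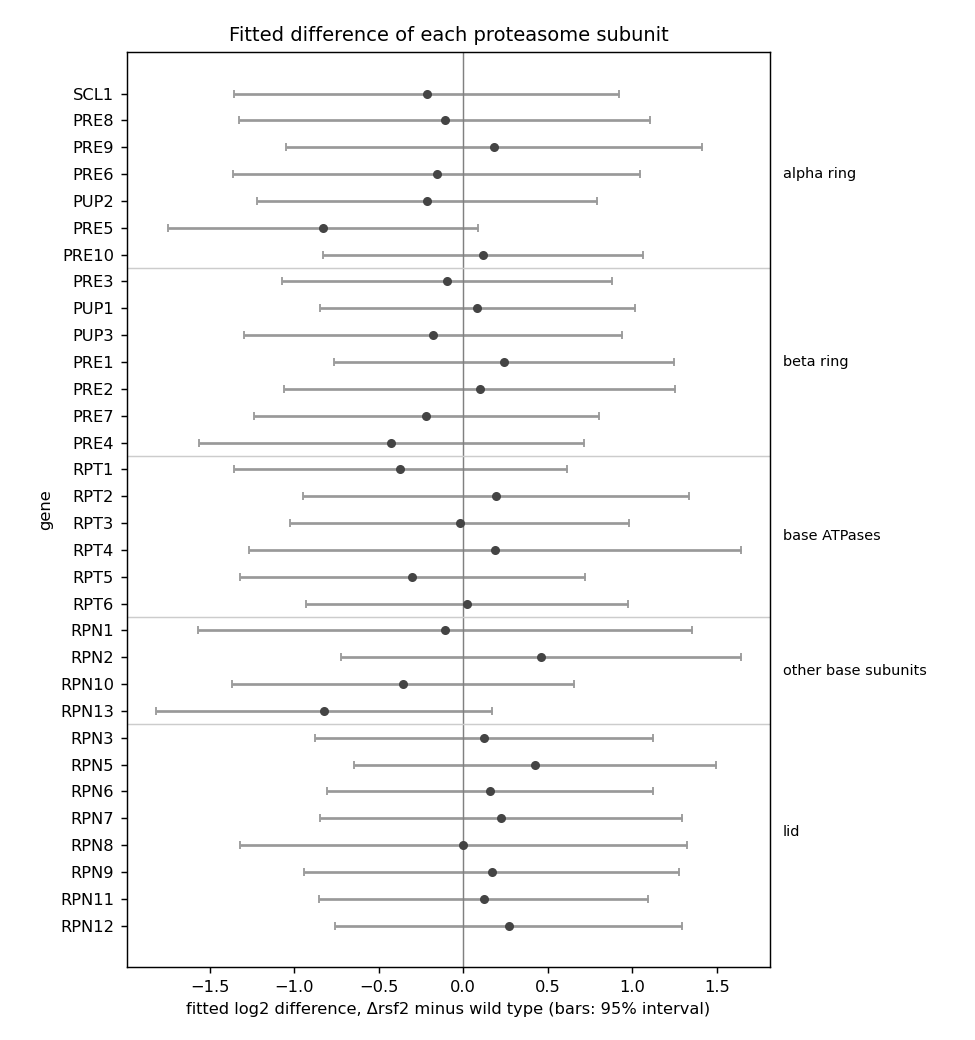
Fitted log2 difference (Δrsf2 minus wild type) of each of the 32 proteasome genes, grouped by their place in the complex; points are limma estimates from 2 Δrsf2 and 3 wild-type arrays and bars are 95% intervals. Every interval crosses 0, and PRE5 at -0.83 and RPN13 at -0.82 lie furthest to the left.

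Groups without overlap were rare among the members. In 2 of the 32 genes, PRE5 and RPN13, both Δrsf2 arrays lay below all wild-type arrays, a share of 6.25% against 8.25% of all genes tested. In 0 of the 32 did both lie above, where 6.69% of all genes did. A share below the background of all genes is not a result about the proteasome. These counts moved with the scaling and with single arrays. With arrays centred on their medians 4 members were lower and 4 higher without overlap, and 771 of all genes (18.2%) did not overlap. Without wild-type replicate 2 there were 2 lower and 2 higher members (792 of all genes, 18.7%). Without wild-type replicate 3 there were 2 lower and 3 higher (1044 genes, 24.6%). Leaving out wild-type replicate 1 gave 7 lower and 0 higher members (1546 of all genes, 36.4%). Leaving out Δrsf2 replicate 1 gave 5 lower and 14 higher (2305 genes, 54.3%). Leaving out Δrsf2 replicate 2 gave 12 lower and 1 higher (2342 genes, 55.2%). These shares of all genes pool both directions, so they give no background for the lower or the higher members alone. The member counts are therefore not a result about the proteasome.

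PRE5 (YMR314W) encodes the alpha6 subunit of the core. Its signal was 1373 and 1310 in Δrsf2, against 2476, 2225 and 2460 in the wild type. The arrays of each strain lay close together and the strains apart, with means of 1342 ± 44.5 (SD, n = 2) in Δrsf2 and 2387 ± 140 (SD, n = 3) in the wild type. The fitted log2 difference was -0.83 ± 0.42 (SE), 1.78-fold lower by value, with an unadjusted limma p of 0.0718 and an adjusted p of 1.00. It was -0.85 in the set of high spike-in signal and -0.84 in the low set.

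RPN13 (YLR421C) encodes a ubiquitin receptor of the base that docks on Rpn2. Its signal was 1214 and 1448 in Δrsf2, against 1738, 2293 and 3253 in the wild type. The wild-type values were spread over a wider range than the gap between the strains, which was smallest between Δrsf2 replicate 2 and wild-type replicate 1. The fitted difference was -0.82 ± 0.45 (SE), 1.77-fold lower by value, with an unadjusted limma p of 0.0953 and an adjusted p of 1.00. It was -0.52 in the high set and -0.92 in the low set. PRE5 and RPN13 kept a negative sign in each of 15 alternative settings. Their lack of overlap fixes this sign in advance in settings that leave out, weight or block arrays, and within each spike-in set. Settings that changed only the floor or the signal filter gave the same estimates for both genes. Such settings therefore do not measure how stable the sign is.

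In the alpha ring, which forms the gate of the barrel, 5 of 7 genes were lower by value and the median log2 difference was -0.16. Besides PRE5 these were SCL1, the alpha1 subunit, at -0.22, PRE8 (alpha2) at -0.11, PRE6 (alpha4) at -0.16 and PUP2 (alpha5) at -0.22. PRE9 (alpha3), the only core subunit that yeast can live without, was at 0.18, and PRE10 (alpha7) at 0.12. In PRE8 and PRE6 the mutant replicates differed from each other more than the strains did. PRE8 was at 902 in Δrsf2 replicate 1 and 3141 in replicate 2, on either side of the wild-type signals of 1446, 1750 and 2371. PRE6 was at 1584 and 4703 in the mutant arrays and between 2606 and 3525 in the wild type.

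The beta ring holds the catalytic subunits. PRE3 (YJL001W), the beta1 subunit with caspase-like activity, had signals of 1468 and 2420 in Δrsf2, against 1859, 1918 and 2297 in the wild type. The mutant values enclosed those of the wild type, and the fitted difference was -0.10 ± 0.45 (SE). PUP1 (YOR157C), the trypsin-like beta2 subunit, was at 1137 and 1361 in Δrsf2, against 1106, 981 and 1492 in the wild type. Both mutant values fell within the wild-type range, with a difference of 0.08 ± 0.43 (SE).

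PRE2 (YPR103W), the chymotrypsin-like beta5 subunit, was at 1242 and 3114 in Δrsf2, against 1203, 2227 and 2327 in the wild type. Each strain had a low value in the array of high spike-in signal, and the difference was 0.10 ± 0.53 (SE). PRE4 (YFR050C), the beta7 subunit, had the largest difference by value in this ring. Its signal was 645 and 2025 in Δrsf2, against 1429, 1414 and 1793 in the wild type. The mutant arrays lay 1 below and 1 above all wild-type arrays, and the fitted difference of -0.43 ± 0.52 (SE) was within that spread. The other beta subunits were PUP3 (beta3) at -0.18, PRE1 (beta4) at 0.24 and PRE7 (beta6) at -0.22, and the median of the ring was -0.10. For PRE3, 2 further probe sets gave log2 differences of -0.48 and -1.24, below the value of the brightest one.

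The median of the 20S core differed between the mutant arrays, though not every core gene did so in the same direction. Δrsf2 replicate 1 was below replicate 2 in 11 of 14 core genes, with 4 of 7 in the alpha ring and 7 of 7 in the beta ring. PUP2, PRE5 and PRE10 went the other way. Replicate 1 was also the lower in 13 of 18 genes of the 19S particle and in 54.9% of all genes. Of the 14 core genes, 8 were lowest of all arrays in Δrsf2 replicate 1, where 26.2% of all genes were. Likewise 8 were highest of all arrays in Δrsf2 replicate 2, where 25.3% of all genes were. The median gap, replicate 1 minus replicate 2, was -1.06 on the log2 scale for the core, -0.26 for the 18 genes of the 19S particle and -0.15 for all genes. Relative to the wild-type mean the core median was -0.56 in Δrsf2 replicate 1 and 0.36 in Δrsf2 replicate 2, and it lay at -0.10, -0.05 and 0.24 in the wild-type arrays. In 8 of 14 core genes the mutant arrays differed by more than 2-fold, against 2 of 18 genes of the 19S particle (RPT4 and RPN8) and 39.8% of all genes. Within the high spike-in set the median difference between the strains was -0.27 for the core, and within the low set it was 0.30. For all genes it was 0.21 in the high set and -0.11 in the low set. These 2 mutant arrays also differed in actin 3′ to 5′ ratio and in spike-in signal as given above, and the part of either in the gap was not tested.

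**Figure D2:**
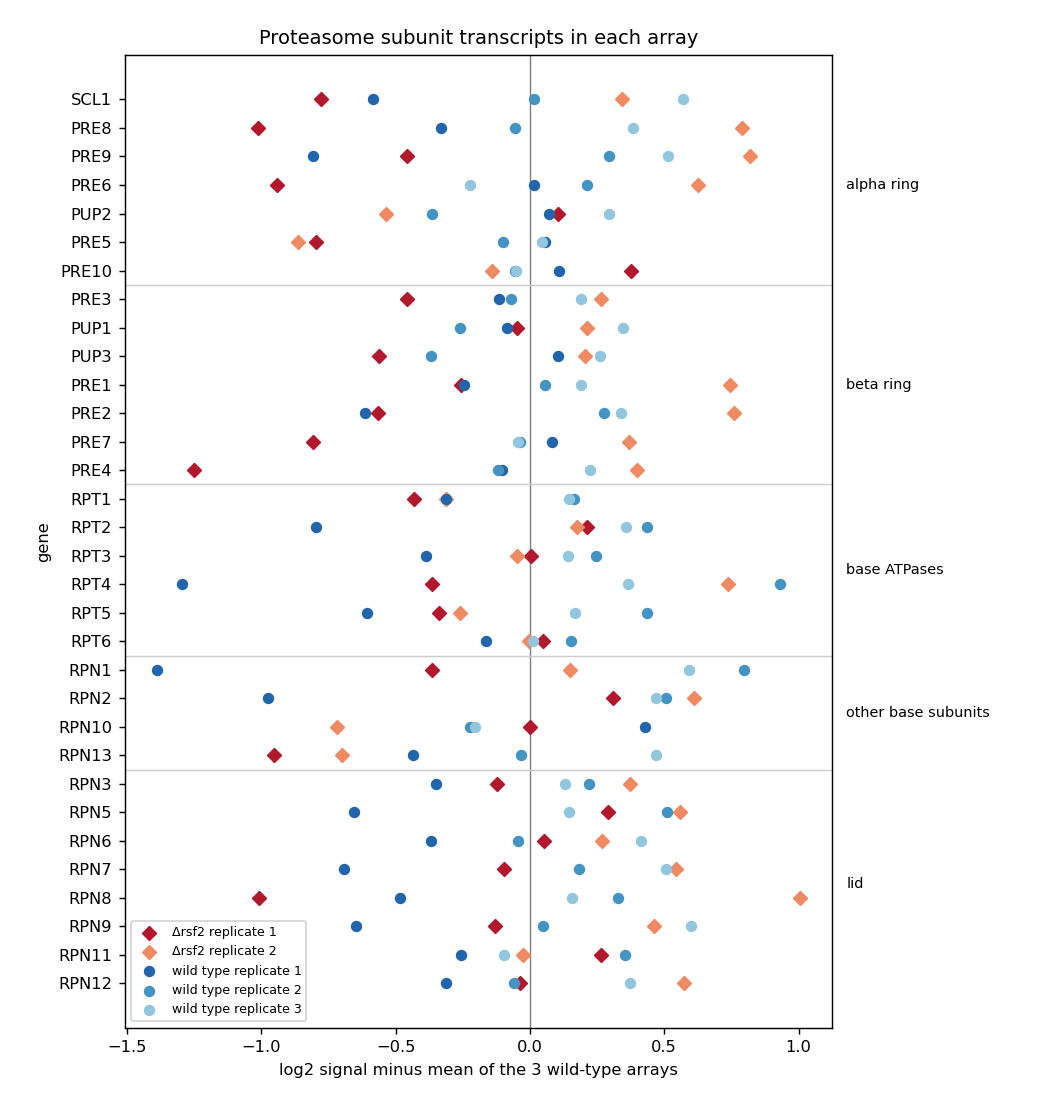
Log2 signal of each proteasome gene in each array minus the mean of its 3 wild-type arrays (diamonds, Δrsf2; circles, wild type). In the core genes Δrsf2 replicate 1 lies mostly to the left and Δrsf2 replicate 2 to the right of the wild type. In 14 of 18 genes of the 19S particle wild-type replicate 1 is the leftmost point, where it is lowest for 36.5% of all genes.

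The ATPases of the base, RPT1 to RPT6, had a median log2 difference of -0.00, with 3 higher and 3 lower by value. RPT1 (YKL145W) had the smallest p of this ring. Its signal was 2046 and 2226 in Δrsf2, against 2225, 3099 and 3059 in the wild type. Wild-type replicate 1 lay level with the mutant and the other wild-type arrays above it, and the difference was -0.37 ± 0.45 (SE). RPT2 and RPT5, whose C-terminal tails help open the gate of the core, were at 0.19 and -0.30, RPT3 at -0.02, RPT4 at 0.19 and RPT6 at 0.02. RPT5 had 3 further probe sets, whose differences were 0.10, -0.54 and -1.72. The lowest of these 3 sets by signal was under the floor in most arrays and carries no direction. Of these 6 genes 5 were lowest in wild-type replicate 1, where 36.5% of all genes tested were. RPT4 was at 446 and 957 in the Δrsf2 arrays, against 234, 1094 and 740 in the wild-type arrays.

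RPN1 and RPN2 are the large scaffold proteins of the base. RPN2 (YIL075C) had the highest difference by value of all members. Its signal was 798 and 983 in Δrsf2, against 327, 915 and 890 in the wild type. The mutant values surrounded those of wild-type replicates 2 and 3, and wild-type replicate 1 stood below all other arrays. The fitted difference was 0.46 ± 0.54 (SE), and without wild-type replicate 1 it was -0.03. RPN1, which also binds ubiquitin and shuttle proteins, was at -0.11 ± 0.67 (SE) with signals of 405 and 579 in Δrsf2, against 199, 905 and 787 in the wild type. RPN10, a ubiquitin receptor that sits between base and lid, was at -0.36 ± 0.46 (SE) with 2101 and 1278 in Δrsf2, against 2825, 1799 and 1826 in the wild type.

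The lid had a median log2 difference of 0.16, and 7 of its 8 genes were higher by value. RPN11 (YFR004W), the metalloprotease that removes ubiquitin chains from substrates, had signals of 2491 and 2038 in Δrsf2, against 1736, 2649 and 1939 in the wild type. Both mutant values lay inside the wild-type range, with a difference of 0.12 ± 0.44 (SE). RPN8, its inactive partner, was at -0.00 ± 0.60 (SE) with 340 and 1370 in Δrsf2, against 488, 857 and 760 in the wild type, so that the mutant arrays again enclosed the wild type.

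RPN5 (YDL147W), a scaffold subunit, was the highest of the lid. Its signal was 780 and 937 in Δrsf2, against 404, 908 and 704 in the wild type, and the difference was 0.42 ± 0.49 (SE). The other scaffold subunits were RPN3 at 0.12, RPN6 at 0.16, RPN7 at 0.22, RPN9 at 0.17 and RPN12 at 0.27. The direction by value for the lid rested on single arrays, namely wild-type replicate 1 and Δrsf2 replicate 2. Wild-type replicate 1 was the lowest array for 7 of the 8 genes, where it was lowest for 36.5% of all genes tested. The median of all genes in that array lay at -0.33 from the wild-type mean. Relative to the wild-type mean the lid median was -0.07 in Δrsf2 replicate 1 and 0.50 in Δrsf2 replicate 2, and -0.43, 0.20 and 0.26 in wild-type replicates 1 to 3. The groups therefore overlapped.

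**Figure D3:**
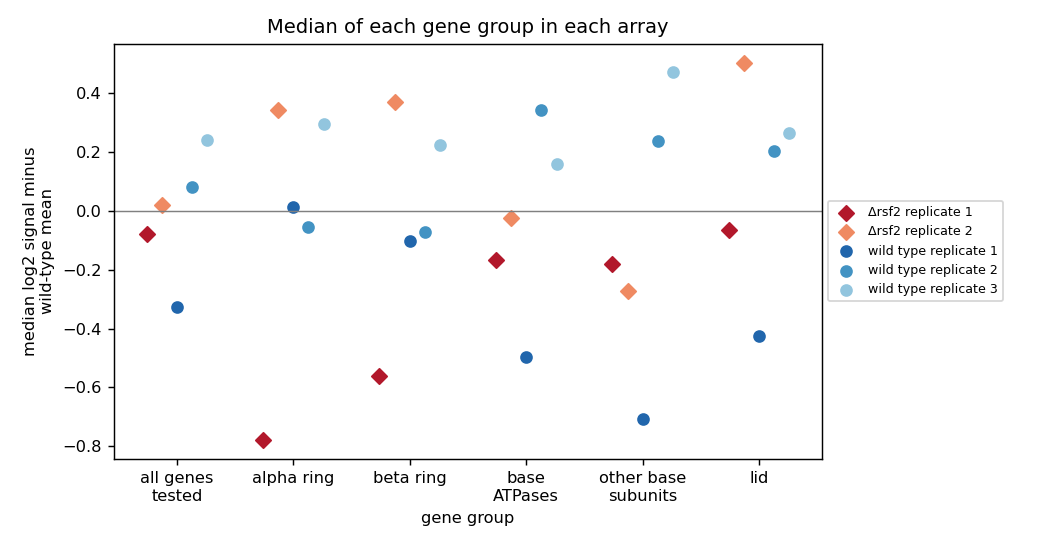
Median over the genes of each group of the log2 signal minus the wild-type mean, for each array (diamonds, Δrsf2; circles, wild type). The alpha and beta ring medians of Δrsf2 replicate 1, at -0.78 and -0.56, lie below every wild-type array while those of Δrsf2 replicate 2 lie above them. The 3 groups of the 19S particle are lowest in wild-type replicate 1, as is the median of all genes tested at -0.33.

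Across the 19S particle, wild-type replicate 1 was the lowest array for 14 of 18 genes, against 2 of 14 genes of the core and 36.5% of all genes. The gap between this array and the mean of the other wild-type arrays had a median of -0.69 on the log2 scale for the 19S genes, -0.14 for the core and -0.49 for all genes. Over the 32 members the gap went with the length of the gene in the reference annotation, from 471 bp for RPN13 to 2982 bp for RPN1. Pearson's r with log2 length was -0.65 and Spearman's rho -0.57 over these 32 genes, all read from the same 3 arrays, and r was -0.23 over all 4242 genes. Within the 18 genes of the 19S particle r was -0.61 and rho -0.54. Within the 14 core genes, whose lengths ran only from 597 to 867 bp, r was -0.21 and rho -0.06. The gap was -2.08 for RPN1, -1.46 for RPN2 and -1.94 for RPT4, and 0.64 for RPN10. The 6 ATPase genes are close in length, from 1218 to 1404 bp, but differed in gap. RPT1 and RPT6, with Δrsf2 means of 2136 and 2337, had gaps of -0.47 and -0.24. RPT2, RPT3, RPT4 and RPT5, with Δrsf2 means of 652, 651, 701 and 761, had gaps of -1.19, -0.58, -1.94 and -0.91. Length and signal level were thus not told apart. Over the same 32 genes the gap between the mutant arrays had an r of 0.18 with length. The median length was 1298 bp for the 19S genes and 765 bp for the core. The part of gene length, signal level or RNA quality in the strain comparison was not tested. Without wild-type replicate 1 the median difference of the 19S genes was -0.15, against 0.12 with all arrays, and 27 of the 32 members were lower by value, against 16 with all arrays. The median of all genes was -0.20 without that array.

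**Figure D4:**
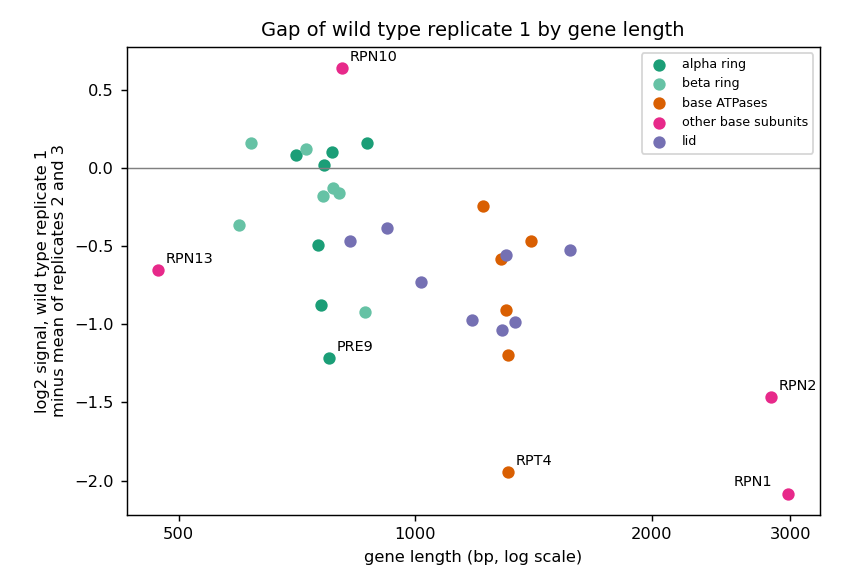
Log2 signal in wild-type replicate 1 minus the mean of wild-type replicates 2 and 3 for each of the 32 proteasome genes against gene length in bp on a log axis, coloured by place in the complex. The longest genes, RPN1 and RPN2, have gaps of -2.08 and -1.46, while the short core genes lie nearer to 0, with PRE9 at -1.21 among the exceptions.

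Genes that act with the proteasome were read from lists of regulators, assembly factors and ubiquitin enzymes, and none of them passed after adjustment. RPN4 (YDL020C), the activator of the proteasome genes, had signals of 1360 and 2533 in Δrsf2, against 811, 1306 and 1429 in the wild type. Δrsf2 replicate 2 stood above all other arrays and replicate 1 lay inside the wild-type range. The fitted difference was 0.69 ± 0.47 (SE), with an unadjusted limma p of 0.169 and an adjusted p of 1.00. It was 0.75 in the high spike-in set and 0.89 in the low set. All 5 factors of that list were higher by value, with a median of 0.26. Relative to the wild-type mean the median of the list was 0.24 and 0.51 in the Δrsf2 arrays and -0.34, 0.01 and 0.32 in the wild-type arrays, so that the strains overlapped. The heat shock factor HSF1 was at 0.33, PDR1 and PDR3, activators of drug resistance genes, at 0.26 and 0.15, and the oxidative stress factor YAP1 at 0.08.

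Of 9 assembly chaperones 8 were tested, 3 of them higher and 5 lower by value, with a median of -0.13; HSM3 was below the signal filter. Only POC4, which pairs with IRC25 to build the alpha ring, did not overlap between the strains. It was at 805 and 875 in Δrsf2, against 947, 1233 and 1498 in the wild type. Among all genes tested 8.25% were lower and 6.69% higher without overlap, so a single gene of 8 is not a result about these chaperones. Its difference was -0.52 ± 0.43 (SE). PBA1, a chaperone of the same step, was at -0.44 ± 0.53 (SE), and UMP1, which is enclosed in the maturing core, at 0.02.

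Among 8 proteins that associate with the proteasome, 6 were lower by value. The groups did not overlap for 3 lower and 2 higher genes, where 8.25% of all genes were lower and 6.69% higher without overlap. Of the 2 higher genes, ECM29 passed the signal filter only through its Δrsf2 arrays, as given below. The lowest were DSK2 and RAD23, shuttle proteins that carry ubiquitinated substrates. DSK2 had signals of 598 and 655 in Δrsf2, against 3278, 858 and 1511 in the wild type. Both mutant arrays lay below the wild type, whose own arrays were spread widely, with wild-type replicate 1 the highest. The difference was -1.37 ± 0.55 (SE) with an unadjusted limma p of 0.0296 and an adjusted p of 1.00, and it was -2.45 in the high spike-in set and -0.80 in the low set. RAD23 was at 328 and 539 in Δrsf2, against 729, 901 and 906 in the wild type, with a difference of -0.999 ± 0.47 (SE) and an unadjusted p of 0.0547 by limma. DDI1, the third shuttle protein, was at -0.72 ± 0.61 (SE) with overlap between the groups.

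The other genes without overlap were singled out after their values were seen: HUL5, a ubiquitin ligase, at -0.22, BLM10, an alternative cap of the core, at 0.53, and ECM29, which tethers core and cap, at 0.80. The second probe set of BLM10 read 158 and 1524 in Δrsf2, against 192, 337 and 800 in the wild type, so that there the mutant arrays enclosed the wild type. The probe set used for ECM29 read 192 and 195 in Δrsf2, against 113, 91.3 and 131 in the wild type. Its wild-type mean of 112 was under the signal filter of 129, so ECM29 was tested only through its Δrsf2 signals. Its place among the higher genes is therefore not a result. ECM29 had 8 probe sets, of which 5 were higher and 1 lower by value in Δrsf2 and 2 were under the floor in most arrays. The deubiquitinase UBP6 was at -0.19 and the lid subunit SEM1 at -0.01.

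Of 18 ubiquitin genes 17 were tested, with 11 higher and 6 lower by value and a median of 0.09. DOA4 was below the signal filter. None of the 17 was without overlap, where 8.25% of all genes were lower and 6.69% higher without overlap. Over 17 genes this is not a result about the ubiquitin genes. The closely related conjugating enzymes UBC4 and UBC5, whose probes may bind both transcripts, were at -0.58 ± 0.61 (SE) and 0.48 ± 0.46 (SE). The polyubiquitin gene UBI4 was at 0.09 and the activating enzyme UBA1 at 0.08. The 4 genes of the CDC48 complex, which extracts ubiquitinated proteins from membranes and complexes, had a median of 0.18, with CDC48 at 0.23 and UFD1 at 0.38.

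**Figure D5:**
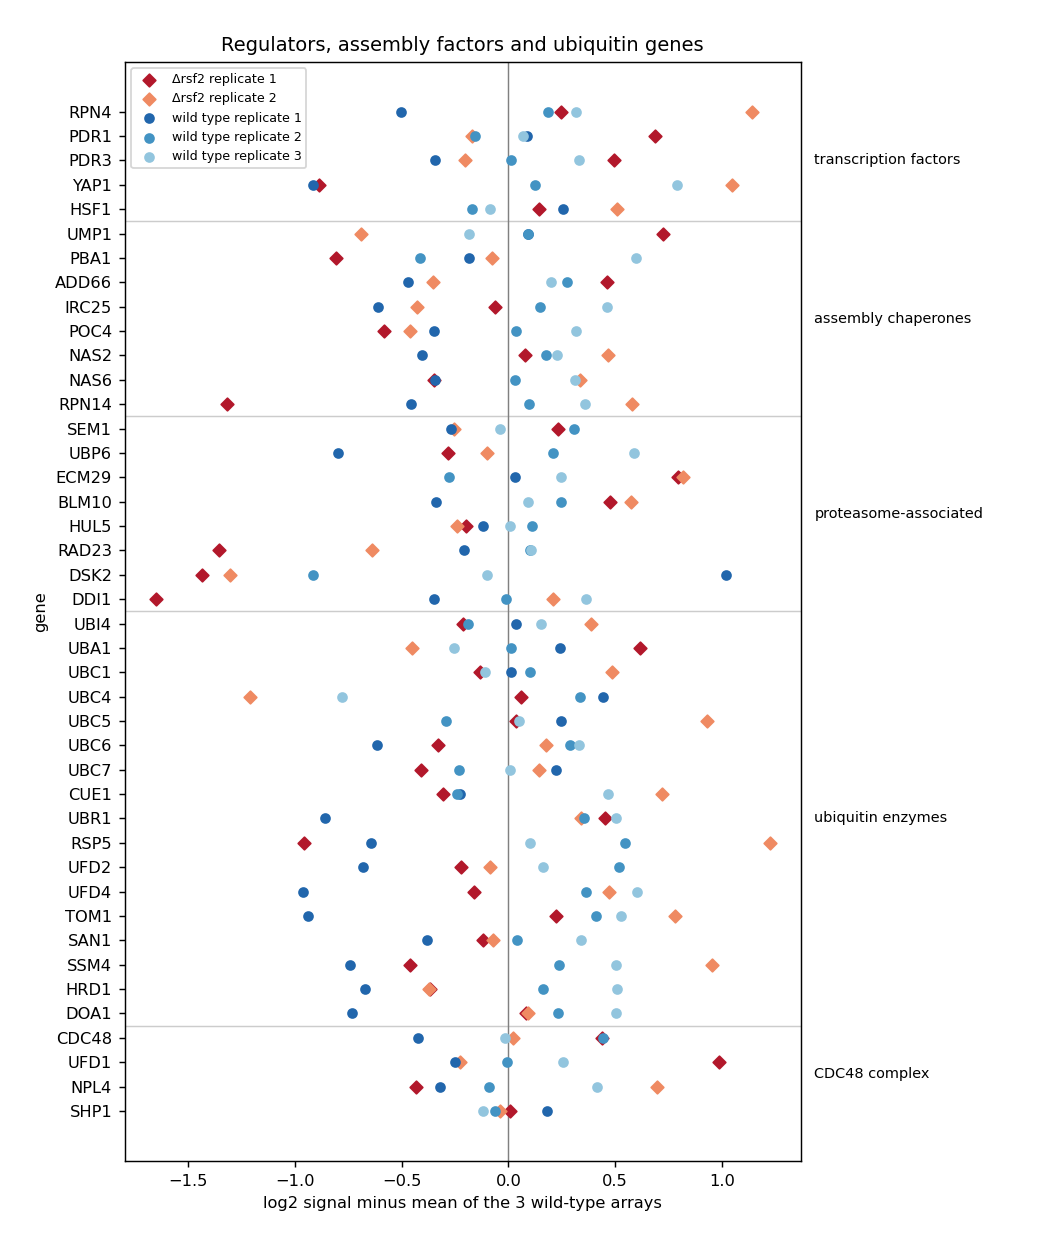
Log2 signal of each tested regulator, assembly chaperone, associated protein, ubiquitin gene and CDC48 complex gene in each array minus the mean of its 3 wild-type arrays (diamonds, Δrsf2; circles, wild type). RPN4 is highest in Δrsf2 replicate 2, and both mutant points of RAD23 and DSK2 lie to the left of all wild-type points.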

How the data were processed

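The authors deposited linear signal intensities, 1 per probe set and array, which per the submitters' processing notes came from MAS5; its version and settings are not given in the sources used here. Deposited trimmed means were 100.1 in Δrsf2 replicate 1 and 500.3 to 500.7 in the other arrays, so every array was rescaled to a trimmed mean of 500 (2% cut from each tail), floored at the 10th percentile (28.1) and put on the log2 scale. Of 9335 probe sets 6504 had 1 gene, 328 several and 2443 no listed gene, and 60 were controls. Names came from the yeast R64 gene table, which all 6504 matched; coordinates are not given, since the array's genome build is not stated. The brightest probe set stood for each of 5656 genes, and genes under the 25th percentile of mean signal (129) were left out.

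The groups, taken from the sample titles, were compared with limma 3.58.1 in R 4.3.3 (lmFit, eBayes with trend, group as the only term, all 5 arrays), with Benjamini-Hochberg adjustment over 4242 genes; the fit was tested on simulated data. The 5 arrays limit the precision. Every member was named, with signals in all arrays for PRE3, PUP1, PRE2, RPN11, the 6 members of smallest p and those without overlap; others whose signals are given were picked after their values were seen. Members and lists were chosen with earlier results of these data known. Lists are described by counts and medians, with no test.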

Additional observations from a re-analysis of the deposited data

How the results depend on the processing

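The alternatives were other scalings, floors and signal filters, array weights, blocks, leaving out each array, and values within each spike-in set; within the high set there is 1 array per strain and no test. No member passed in any of the 14 alternatives with a test, and the smallest adjusted limma p of a member ran from 0.131 (RPN13, within the low spike-in set) to 1.00. All genes together gave 0 calls, and 138 at an unadjusted p under 0.05. There were 6 calls with a replicate block, 50 without Δrsf2 replicate 1, 61 without Δrsf2 replicate 2 and 422 within the low spike-in set, a range of 0 to 61 over the fits that leave out 1 array. Titles number the replicates and the labels give no other pairing, so the numbers were not taken to pair the arrays. Deviations of the first pair, both arrays of the high spike-in set, correlated at 0.28 and those of the second at -0.09. Those of Δrsf2 replicate 2 with wild-type replicate 3 correlated at 0.48. With 2 mutant arrays the deviations of 1 mirror those of the other, so these correlations are tied and cannot decide the pairing. The members' median was 0.08 with the replicate block and ran from -0.30 to 0.30 when 1 array was left out (-0.30 without Δrsf2 replicate 2). Members without overlap were 2 lower and 2 higher after quantile normalisation, where 847 of the 4242 genes did not overlap, and 4 lower and 4 higher with arrays centred on their medians (771 genes). Within the low set 11 were lower and 14 higher (3385 genes, 79.8%). When 1 array was left out the members without overlap ran from 2 to 12 lower and from 0 to 14 higher. The share of all genes then ran from 18.7% to 55.2%, both directions together. With a single mutant array fewer values need to lie apart. Single members, all uncalled, changed sign in 82 of 480 values, and PRE5, RPN13, RPT1 and RPN5 in none. The 480 values include settings that could not change a sign. Without the floor, without the filter and with a filter at the 50th percentile every member kept its main estimate. The replicate block gave the same estimates as leaving out wild-type replicate 3, so these were counted under both. The causes of the sign changes were not tested. The log2 differences that changed sign were as follows. Quantile normalisation had RPT3 at 0.033, and centring RPT3 at 0.026 and RPN8 at 0.047. Array weights had PRE9 at -0.11, PUP2 at 0.012, PUP3 at 0.056, PRE2 at -0.15, RPT2 at -0.18, RPT4 at -0.55, RPT6 at -0.091, RPN3 at -0.054 and RPN11 at -0.13. The replicate block had SCL1 at 0.067, PRE8 at 0.082, RPT3 at 0.049, RPN1 at 0.19 and RPN8 at 0.076, and the spike-in set block PRE8 at 0.065, RPT3 at 0.030, RPN1 at 0.13 and RPN8 at 0.21. The high spike-in set had PUP2 at 0.036, PRE1 at -0.014, RPT3 at 0.39, RPT5 at 0.27 and RPN1 at 1.02. The low set had SCL1 at 0.050, PRE8 at 0.62, PRE6 at 0.63, PRE10 at -0.088, PRE3 at 0.21, PUP3 at 0.26, PRE7 at 0.41, PRE4 at 0.35, RPT2 at -0.22, RPT6 at -0.085, RPN8 at 0.76 and RPN11 at -0.15. With 1 array left out the ranges were, for the core, SCL1 from -0.78 to 0.34, PRE8 from -1.01 to 0.79, PRE9 from -0.46 to 0.82, PRE6 from -0.94 to 0.63, PUP2 from -0.54 to 0.11, PRE10 from -0.14 to 0.38, PRE3 from -0.46 to 0.26, PUP1 from -0.047 to 0.26, PUP3 from -0.56 to 0.20, PRE1 from -0.26 to 0.74, PRE2 from -0.57 to 0.76, PRE7 from -0.81 to 0.37, PRE4 from -1.25 to 0.40. For the 19S particle they were RPT2 from -0.20 to 0.41, RPT3 from -0.22 to 0.10, RPT4 from -0.46 to 0.74, RPT6 from -0.059 to 0.10, RPN1 from -0.80 to 0.29, RPN2 from -0.027 to 0.71, RPN10 from -0.72 to 3.9e-05, RPN3 from -0.12 to 0.37, RPN6 from -0.025 to 0.37, RPN7 from -0.12 to 0.54, RPN8 from -1.01 to 1.00, RPN9 from -0.16 to 0.47, RPN11 from -0.025 to 0.30 and RPN12 from -0.036 to 0.57.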
